A study of Homo sapiens with 12 samples.

Results

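The canonical, or replication-dependent, histone genes were examined on Illumina BeadChips hybridised with RNA from HEK293 cells, a human embryonic kidney line. Members were taken by annotated symbol: every probe whose symbol begins with H2AC, H2BC, H3C or H4C and a number, or is H1-1 to H1-6. The rule found 79 of the 47312 probes on the array. Of these, 78 carry 1 symbol and read 69 of the 20043 genes that 1-symbol probes of the array read, and 1 probe carries the symbols H3C11 and H3C6 together. By class there were 6 probes for linker histone H1, 19 for H2A, 23 for H2B, 16 for H3 and 15 for H4.

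The 12 arrays fall into 4 groups of 3. An isogenic pair of HEK293 lines stably expressed either the wild-type glucocorticoid receptor (wtGR) or GR3KR, a form that is defective in SUMOylation, the attachment of the small protein SUMO. Both lines were kept in steroid-depleted medium before treatment, and all 4 groups then received 100 nM dexamethasone, a synthetic glucocorticoid, for 6 h. In each line 1 group also received 5 µM 15d-PGJ2, an electrophilic prostaglandin, which gives a group without and a group with 15d-PGJ2 for wtGR and likewise for GR3KR. No group went without dexamethasone, and the sources used here do not say whether the arrays of a group are separate cultures. The p-values therefore cover the spread between these arrays, which may be technical. Each receptor form was represented by 1 line, so the receptor form and any other difference between the lines cannot be told apart.

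Replication-dependent histone genes supply the core histones H2A, H2B, H3 and H4, which form the protein spool of the nucleosome, and the linker histone H1, which binds the DNA that enters and leaves it. They are transcribed mainly in S phase, and their mRNAs typically end in a stem-loop, bound by the protein SLBP, in place of a poly(A) tail. Some members, among them H1-2, H2AC6, H2BC4, H2BC5, H2BC12 and H2BC21, also give polyadenylated transcripts. The labels name an Ambion amplification kit, and kits of this kind usually start from an oligo(dT) primer, so these signals need not follow total histone mRNA. Many members are close copies of each other, and their probes can share signal. In bulk RNA, fewer cells in S phase and less RNA per cell cannot be told apart.

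The promoters of 5 genes that were higher in GR3KR than in wtGR cells with dexamethasone alone are printed here. Each window is the RefSeq sequence (GRCh38.p14) from 250 bases before to 50 bases after the first listed start of the gene, 5′ to 3′ on the gene's strand. Capitals mark matches, on either strand, to CCAAT, to TATAAA or to the octamer ATTTGCAT, and overlapping matches run together.
H1-2 (chr6:26056421-26056720, minus strand): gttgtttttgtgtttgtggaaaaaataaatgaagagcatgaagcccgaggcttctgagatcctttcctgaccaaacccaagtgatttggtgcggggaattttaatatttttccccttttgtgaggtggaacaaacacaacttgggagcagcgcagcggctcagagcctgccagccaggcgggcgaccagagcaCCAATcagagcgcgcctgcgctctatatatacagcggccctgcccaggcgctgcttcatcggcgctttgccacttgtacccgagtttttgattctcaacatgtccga
H2AC6 (chr6:26123922-26124221, plus strand): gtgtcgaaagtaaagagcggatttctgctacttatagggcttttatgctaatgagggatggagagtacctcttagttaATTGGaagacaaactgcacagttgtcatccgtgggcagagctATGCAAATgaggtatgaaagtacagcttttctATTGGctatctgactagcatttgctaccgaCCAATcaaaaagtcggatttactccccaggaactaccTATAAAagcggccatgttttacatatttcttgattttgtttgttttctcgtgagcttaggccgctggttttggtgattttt
H2BC5 (chr6:26157871-26158170, plus strand): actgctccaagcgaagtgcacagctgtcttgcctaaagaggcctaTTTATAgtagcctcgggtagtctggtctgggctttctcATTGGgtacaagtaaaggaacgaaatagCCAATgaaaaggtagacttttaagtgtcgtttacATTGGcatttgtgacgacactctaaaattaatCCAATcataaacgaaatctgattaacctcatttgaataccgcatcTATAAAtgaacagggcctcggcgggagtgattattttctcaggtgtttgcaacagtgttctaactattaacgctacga
H2BC12 (chr6:27146809-27147108, minus strand): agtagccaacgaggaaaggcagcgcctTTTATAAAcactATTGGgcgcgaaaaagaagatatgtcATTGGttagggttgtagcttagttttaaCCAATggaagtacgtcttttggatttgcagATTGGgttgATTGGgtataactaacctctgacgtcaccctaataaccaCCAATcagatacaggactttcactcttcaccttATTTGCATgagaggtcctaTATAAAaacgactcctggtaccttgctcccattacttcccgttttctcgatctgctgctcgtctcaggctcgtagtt
H4C8 (chr6:26285485-26285784, minus strand): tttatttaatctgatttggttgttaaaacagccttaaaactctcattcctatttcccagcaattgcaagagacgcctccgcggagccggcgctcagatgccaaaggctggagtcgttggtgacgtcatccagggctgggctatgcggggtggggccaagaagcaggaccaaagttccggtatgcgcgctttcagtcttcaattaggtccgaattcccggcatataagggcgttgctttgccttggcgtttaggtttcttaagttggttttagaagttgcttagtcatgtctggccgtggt

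H2AC6 and H2BC4 stand head to head on chromosome 6, with starts 244 bases apart, so 255 of the 300 bases of their windows are the same DNA read from opposite strands and H2BC4 is not printed. A promoter entry was found for 64 of the 69 genes: 50 on chromosome 6, 13 on chromosome 1 and 1 on chromosome 12. CCAAT stood in 84.4% of the 64 histone promoters, against 35.7% of the 27305 promoters in the table. TATAAA stood in 65.6% against 12%, and the octamer in 40.6% against 1.8%. The octamer fell mostly in H2B (77.8% of 18 promoters) and H2A (68.8% of 16) and was found in 1 of the 11 H3 promoters (9.09%) and in none of the H1 and H4 windows. CCAAT was in every H1, H2A, H2B and H3 window and in 23.1% of the 13 H4 windows, and the H4C8 window above holds none of the 3 motifs. Among the 6 genes higher in GR3KR cells, 5 windows held CCAAT, 4 held TATAAA and 3 held the octamer. In the windows of H2AC6 and H2BC4 these are the same letters read from opposite strands, so these genes are not separate cases. Among the 24 other kept genes with a window these stood in 79.2%, 70.8% and 29.2%. These matches are letters in a window and not binding sites.

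A probe was kept when its deposited detection p-value was under 0.01 on at least 3 of the 12 arrays. This kept 37 of the 79 histone probes, and 20909 probes in all. The kept probes were 2 for H1, 8 for H2A, 11 for H2B, 9 for H3 and 7 for H4, and the 1-symbol probes among them read 31 genes. Of the 42 not kept, 37 were detected on 0 arrays. These 37 include H1-3, H1-4, H1-5 and the testis form H1-6, and 12 H2B and 8 H4 probes. Probes for H2AC4, H2AC8 and H2AC13 were detected on 1 array, and those for H3C4 and H3C15 on 2. Of the 37 kept, 14 were detected on all 12 arrays, among them H1-2, H2AC20, H2AC19, H2BC21, H2BC15, H4C3, H4C8 and H4C14. Another 6 kept probes were detected on only 3 or 4 arrays. Genes with probes both kept and not kept were H2AC11, H2BC5 and H2BC18.

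**Figure D1:**
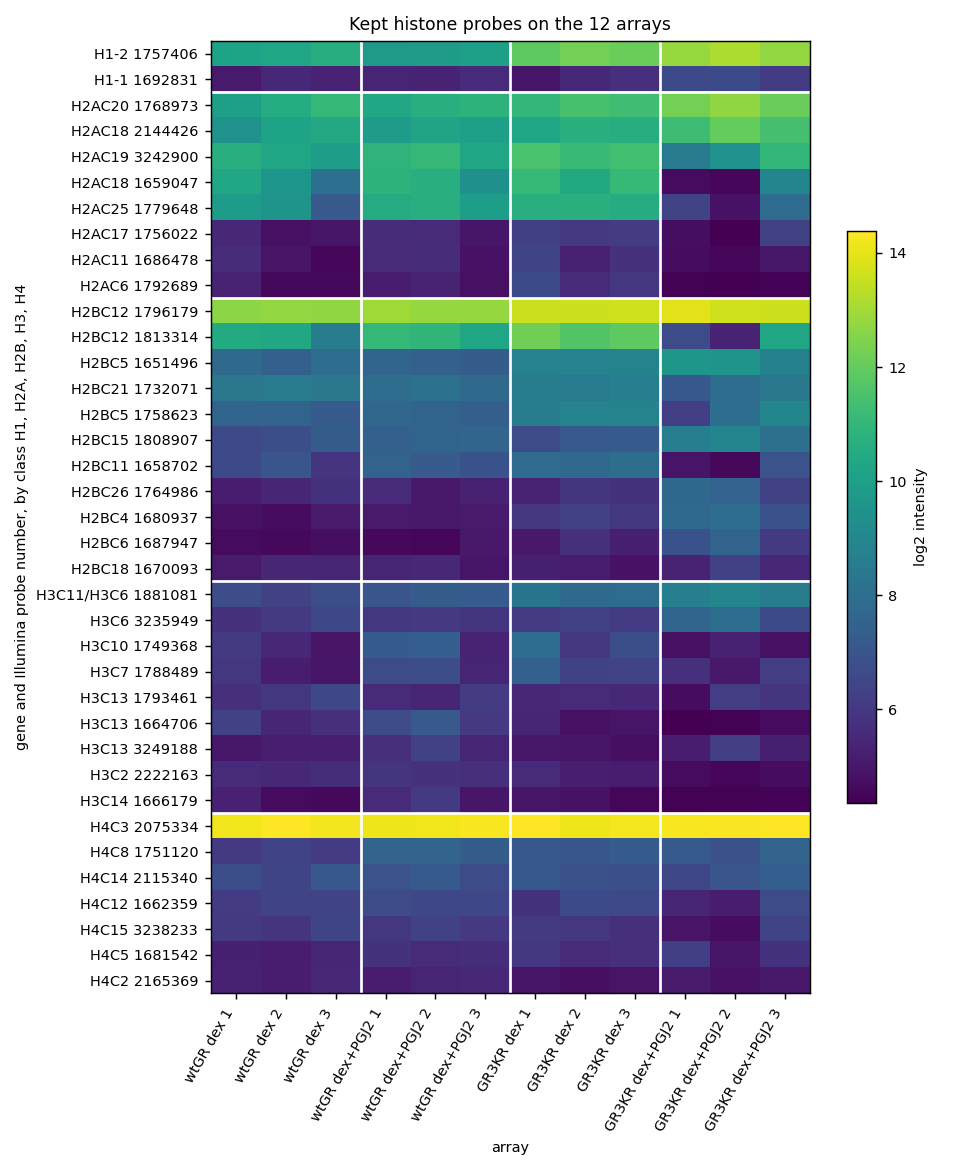
Heat map of log2 intensity of the 37 kept histone probes (vertical axis, gene and Illumina probe number, grouped by class) on the 12 arrays (horizontal axis, 3 per group). H1-2 runs from 9.77 to 10.59 on the 6 wtGR arrays and from 11.90 to 13.16 on the 6 GR3KR arrays, and some H2A and H2B probes drop on GR3KR 15d-PGJ2 arrays 1 and 2.

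The 3 arrays of GR3KR cells with 15d-PGJ2 stood apart, and this touches every result that uses them. They detected 15223, 14207 and 17032 probes, against 17959 to 19950 on the other 9, and 22, 19 and 28 histone probes against 25 to 34. The lowest detected signal was 6.15, 6.44 and 5.69 on these 3 arrays, against 5.20 to 5.50 on the other 9. Across the 3228 genes read by more than 1 kept probe, the gap between probes of the same gene shifted by a median of 1.23, 1.07 and 0.40 log2 units on these arrays, against 0.137 to 0.324 on the others. Results that rest on them are given with and without arrays 1 and 2. HEK293 identity was checked with 9 markers: 8 were kept, and PAX2 was detected on 0 arrays. Of 10 fibroblast markers 2 were kept (COL1A1 and PDGFRA), of 10 leukocyte markers 4 (CD14, CD68, HLA-DRA and CD74, with PTPRC on 0 arrays) and of 6 hepatocyte markers 3 (ALB, APOA1 and SERPINA1). Between the lines with dexamethasone alone, 1 kept marker of these 4 lists was called, the HEK293 marker INA (-1.74, limma adjusted p = 0.00159). Their part in the histone results was not tested.

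With dexamethasone alone, the histone probes that differed between the lines were all higher in GR3KR cells. Of the 37 kept probes, 7 were higher and 0 lower at a limma adjusted p under 0.05, and over all 20909 kept probes 1.54% were higher and 3.08% lower (4.62% in either direction). At an unadjusted p under 0.05 the limma count was 17 of 37 (15 higher, 2 lower), against 18.1% of all probes. The 7 read H1-2, H2AC6, H2BC4, H2BC5, H2BC12, H4C8 and the probe shared by H3C11 and H3C6. The median log2 difference of the kept histone probes was 0.68, and that of all kept probes 0.0044. Without the detection filter the medians were 0.102 over all 79 histone probes and 0.001 over all probes. All 3 GR3KR arrays lay above all 3 wtGR arrays for 18 of the 37 probes, which held for 13.5% of all probes, and all lay below for 4, against 17.8% of all. Some members, such as H2BC4, H2BC6 and H2AC6, passed the detection filter mainly through the GR3KR arrays, so these counts are a description of the kept probes and not of all members.

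**Figure D2:**
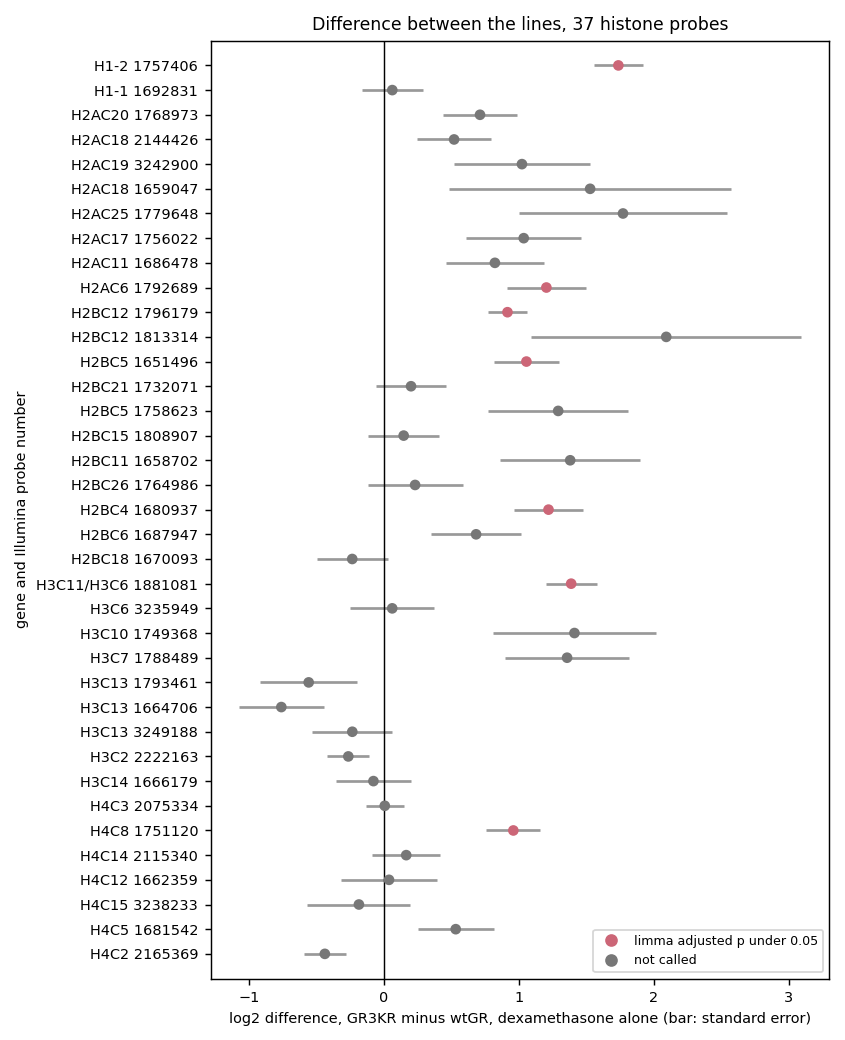
Log2 difference between GR3KR and wtGR cells with dexamethasone alone (horizontal axis, with the standard error of the limma model as bars) for each of the 37 kept histone probes (vertical axis). The 7 probes with an adjusted p under 0.05 are coloured, all lie above 0, and 29 of the 37 estimates are above 0. Over all 20909 kept probes 10549 estimates are above 0.

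H1-2, a linker histone of somatic cells, showed the largest called difference. In wtGR cells with dexamethasone its log2 intensity on arrays 1, 2 and 3 was 10.19, 10.28 and 10.59, and in GR3KR cells it was 11.90, 12.27 and 12.11 (values for 3 arrays are given in this order throughout). The groups did not overlap, and every GR3KR array was well above every wtGR array. The log2 difference was 1.74 ± 0.18 (SE, n = 3 arrays a group, limma adjusted p = 0.000496), a 3.34-fold higher signal. H1-1, the other kept H1 probe, read 5.10, 5.50 and 5.36 against 4.94, 5.50 and 5.71, and these groups overlapped. Its difference was 0.06 ± 0.23 (limma adjusted p = 0.939), and it was detected on 1 of 3 arrays in each group.

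Of the 11 kept H2B probes 3 were higher, against 1.54% of all kept probes, and 10 of the 11 estimates were above 0. H2B pairs with H2A in the nucleosome. The H2BC12 probe ILMN_1796179 read 12.63, 12.74 and 12.70 in wtGR cells and 13.57, 13.60 and 13.65 in GR3KR cells. The arrays of each line lay close together and far from those of the other line, a difference of 0.92 ± 0.14 (limma adjusted p = 0.00546, 1.89-fold). The second H2BC12 probe, ILMN_1813314, read 10.48, 10.38 and 8.62 against 12.19, 11.68 and 11.90, with wtGR array 3 far below its group. Its groups did not overlap either, but its difference of 2.09 ± 1.0 was not called (limma adjusted p = 0.308). For H2BC5 the probe ILMN_1651496 gave 7.82, 7.45 and 7.98 against 8.79, 8.79 and 8.83, with no overlap, and a difference of 1.06 ± 0.24 (limma adjusted p = 0.0336, 2.08-fold). The other kept H2BC5 probe, ILMN_1758623, gave 7.59, 7.57 and 7.25 against 8.57, 8.86 and 8.86. This too put every GR3KR array above every wtGR array, at 1.29 ± 0.52 (limma adjusted p = 0.213). H2BC11 read 6.57, 7.01 and 5.91 against 7.86, 7.79 and 7.98, also without overlap (1.38 ± 0.52, limma adjusted p = 0.184).

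H2BC4 was not detected on any of the 6 wtGR arrays and was detected on all 6 GR3KR arrays. With dexamethasone it measured 4.80, 4.71 and 5.07 in wtGR cells and 5.94, 6.33 and 5.98 in GR3KR cells, a difference of 1.22 ± 0.25 (limma adjusted p = 0.0227). The signal was at least 1.71-fold higher in GR3KR cells, a bound set against the lowest detected signal of each wtGR array. Its head-to-head neighbour H2AC6 measured 5.35, 4.58 and 4.56 against 6.61, 5.56 and 5.93, detected on 1 of 3 wtGR and 3 of 3 GR3KR arrays. The H2AC6 groups did not overlap, though wtGR array 1 came close to the lowest GR3KR array, and the difference was 1.20 ± 0.29 (limma adjusted p = 0.0426). Neither H2BC4 nor H2AC6 kept its call with the deposited log2 values (0.38 and 0.39, limma adjusted p = 0.196 and 0.0854). Both also lost it without background correction and with an offset of 50, so these 2 calls depend on the processing. Among the 13 head-to-head pairs of histone genes with starts at most 1000 bases apart, 4 had both genes kept, and only H2BC4 and H2AC6 were both called here. The 13 count H2BC7 with both H3C4 and H2AC7, each at 221 bases, so they are not all separate promoters. In the remaining pairs with both genes kept, the log2 differences were 0.20 for H2BC21 and 0.71 for H2AC20, 1.77 for H2AC25 and 0.23 for H2BC26, and 1.38 for H2BC11 and 0.82 for H2AC11, none of them called.

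**Figure D3:**
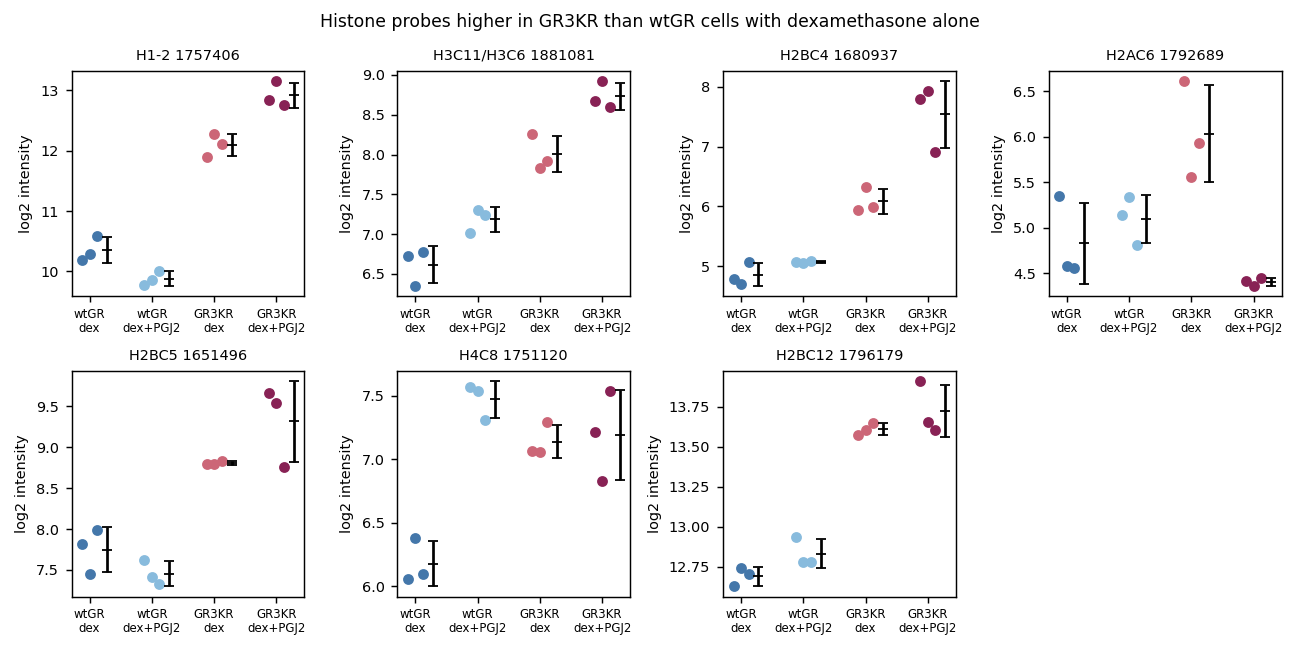
Log2 intensity (vertical axes, each with its own range, not starting at 0) of the 7 histone probes called between the lines with dexamethasone alone, on the 3 arrays of each of the 4 groups (horizontal axes; dex, dexamethasone; PGJ2, 15d-PGJ2). Points are arrays, and the bar beside them is the mean with the SD of 3 arrays. In each panel the 3 GR3KR arrays with dexamethasone lie above the 3 wtGR arrays with dexamethasone.

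All 8 kept H2A estimates were above 0, but only that of H2AC6 was called. H2AC20 read 10.03, 10.54 and 11.05 in wtGR cells and 10.98, 11.48 and 11.30 in GR3KR cells, with overlap (0.71 ± 0.28, limma adjusted p = 0.198). H2AC18 and H2AC19 are near-identical genes. H2AC19 read 10.66, 10.29 and 9.94 against 11.51, 11.12 and 11.35, without overlap (1.02 ± 0.50, limma adjusted p = 0.323). For H2AC18, the probe ILMN_2144426 read 9.45, 10.15 and 10.41 against 10.28, 10.70 and 10.59, and the probe ILMN_1659047 read 10.37, 9.62 and 8.02 against 11.07, 10.46 and 11.06. Only the second of these put all GR3KR arrays above all wtGR arrays, and neither was called (limma adjusted p = 0.365 and 0.514). The H2AC25 probe read 9.91, 9.54 and 7.17 against 10.66, 10.74 and 10.55 and was not called (1.77 ± 0.77, limma adjusted p = 0.258). On wtGR array 3, H2AC25, the H2BC12 probe ILMN_1813314 and the H2AC18 probe ILMN_1659047 all lay well below the other arrays of their group.

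The H3 and H4 classes were less uniform, with 4 of 9 and 5 of 7 estimates above 0 and 1 called probe each. The probe that carries the symbols H3C11 and H3C6 read 6.72, 6.35 and 6.78 in wtGR cells and 8.26, 7.83 and 7.92 in GR3KR cells. Its groups lay far apart, at 1.39 ± 0.19 (limma adjusted p = 0.00267, 2.62-fold). H3C6's own probe read 5.78, 6.05 and 6.52 against 6.15, 6.29 and 6.09, with overlap and a difference of 0.06 ± 0.31 (limma adjusted p = 0.961), and the H3C11 probe with a single symbol was detected on 0 arrays. H3C10 read 6.08, 5.50 and 4.88 against 7.99, 5.96 and 6.75 and was not called (1.41 ± 0.60, limma adjusted p = 0.247). The 3 kept H3C13 probes went the other way: ILMN_1793461 read 5.74, 6.00 and 6.53 against 5.49, 5.58 and 5.53, and ILMN_1664706 read 6.32, 5.45 and 5.70 against 5.44, 4.82 and 4.92. Both put all GR3KR arrays below all wtGR arrays, at -0.56 and -0.76 (limma adjusted p = 0.482 and 0.228). The third, ILMN_3249188, was detected on none of these 6 arrays.

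H4C8 encodes histone H4, whose protein is the same from many genes. Its probe read 6.05, 6.38 and 6.10 in wtGR cells and 7.07, 7.06 and 7.29 in GR3KR cells. The groups were well separated, and the difference was 0.96 ± 0.20 (limma adjusted p = 0.023, 1.95-fold). No other H4 probe was called. H4C3 read 14.18, 14.38 and 14.20 against 14.38, 14.14 and 14.26, and its 12 arrays spanned only 14.11 to 14.38. H4C14 read 6.75, 6.47 and 7.09 against 7.12, 6.86 and 6.83 (0.17 ± 0.25, limma adjusted p = 0.829).

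The list of members known to give polyadenylated transcripts was drawn up with earlier results of these data known and holds 5 of the 6 genes called by a probe with 1 gene symbol, so its counts support nothing on their own. Of its 8 kept probes 5 were called, with a median difference of 1.21, and of the other 29 kept probes 2, with a median of 0.23. The difference between these sets was not tested, and H2BC4 was kept only through GR3KR arrays. H2BC21, also on the list, read 8.33, 8.43 and 8.32 against 8.58, 8.46 and 8.65 and was not called (0.20 ± 0.26, limma adjusted p = 0.789). Of the 44 kept S phase genes, limma called 0 higher (5 at an unadjusted p under 0.05) and 2 lower (7 unadjusted): RFC4, a subunit of the clamp loader (-0.72 ± 0.14, limma adjusted p = 0.0159), and POLE2, a subunit of DNA polymerase epsilon (-0.99 ± 0.21, limma adjusted p = 0.0254). The median of the 44 was -0.05. Of 16 kept genes for histone mRNA maturation and decay only CSTF3, a cleavage factor, was called (-0.69 ± 0.15, limma adjusted p = 0.0257), and SLBP stood at 0.29 ± 0.82 (limma adjusted p = 0.921). Of 10 kept replication-independent histone variants, the centromeric CENPA was higher (0.73 ± 0.17, limma adjusted p = 0.0411). Of 20 kept histone chaperones, NAP1L4 was higher (0.77 ± 0.14, limma adjusted p = 0.0138) and CHAF1B, a subunit of chromatin assembly factor 1, lower (-0.70 ± 0.16, limma adjusted p = 0.0332).

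The count of 7 depended on single arrays. It was 4 without wtGR dexamethasone array 1, 2 or 3 or without GR3KR dexamethasone array 2, and 3 without GR3KR dexamethasone array 1 or 3, with 0 lower each time. In these 6 fits 1.49% to 3.08% of all probes were called in either direction. H1-2, the H2BC12 probe ILMN_1796179 and the probe shared by H3C11 and H3C6 were called whichever 1 of the 12 arrays was left out. H2AC6 was called in 4 of these 12 fits, H2BC5 in 3, and H2BC4 and H4C8 in 7 each. GR3KR 15d-PGJ2 arrays 1 and 2 belong to neither group compared here. Without them in the fit 12 probes were higher and 0 lower, against 4.29% and 7.6% of all probes. That fit differs in the estimate of the spread, while normalization and the detection filter still used all 12 arrays. The 5 added calls were the other probes of H2BC12 and H2BC5, and H2BC11, H2AC17 and H2AC19. With median scaling in place of quantile normalization 3 of 37 were called, against 9.97% of all probes, so the members' share was no longer above that of all probes. The median of all probes was then -0.251 and that of the histone probes 0.446.

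15d-PGJ2 changed no histone probe past the threshold in wtGR cells. Of the 37 probes 0 were called by limma, against 0.0765% of all probes (16 of 20909), and 7 had an unadjusted p under 0.05, against 7.61% of all. The median was 0.22, and that of all probes -0.0347. For 9 of the 37 probes all 3 arrays with 15d-PGJ2 lay above the 3 without, and for 2 all lay below, which held for 6.66% and 11.9% of all probes. H4C8 had the lowest p. It read 7.57, 7.54 and 7.31 with 15d-PGJ2, all above the 6.05, 6.38 and 6.10 without, and the difference was 1.29 ± 0.20 (limma adjusted p = 0.0589, 2.45-fold). Once the GR3KR 15d-PGJ2 arrays 1 and 2 were left out it was called (limma adjusted p = 0.0185), 1 of 37 probes higher and 0 lower, against 0.22% and 0.167% of all. Over its 26 alternatives the adjusted p ran from 0.000193 to 0.432.

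No other histone probe came as close to the threshold in wtGR cells. H1-2 read 9.77, 9.86 and 10.02, all below its dexamethasone arrays (-0.47 ± 0.18, limma adjusted p = 0.582). The probe shared by H3C11 and H3C6 read 7.01, 7.30 and 7.24, all above them (0.57 ± 0.19, limma adjusted p = 0.512). H2BC12 gave 12.94, 12.78 and 12.78 by the probe ILMN_1796179 and 11.03, 10.91 and 10.27 by ILMN_1813314. The first stood just above its dexamethasone arrays and the second overlapped them. H2BC5 gave 7.62, 7.42 and 7.32 by ILMN_1651496 and 7.65, 7.54 and 7.41 by ILMN_1758623, and both overlapped. H2BC4 (5.08, 5.06 and 5.08) and H2AC6 (5.14, 5.34 and 4.82) stayed below detection on all 3 arrays. H2BC15 read 7.45, 7.60 and 7.61, above the 6.56, 6.79 and 7.33 without (0.66 ± 0.27, limma adjusted p = 0.598). H2AC25 (10.53, 10.64 and 9.94) and H3C10 (7.27, 7.35 and 5.32) had estimates of 1.49 ± 0.77 and 1.16 ± 0.60, neither called (limma adjusted p = 0.711 and 0.716). H3C13 gave 5.59, 5.40 and 6.12 by ILMN_1793461, 6.63, 7.15 and 6.01 by ILMN_1664706 and 5.72, 6.29 and 5.39 by ILMN_3249188, and the estimates of these 3 probes did not share a sign. Several further probes overlapped their dexamethasone arrays: H1-1 read 5.40, 5.32 and 5.60, H3C6 read 5.99, 6.01 and 5.92, and H4C3 read 14.11, 14.17 and 14.26. In the H2A class, H2AC20 read 10.34, 10.67 and 10.85, H2AC19 read 10.88, 11.03 and 10.29, and H2AC18 read 9.87, 10.19 and 10.01 by ILMN_2144426 and 10.83, 10.68 and 9.40 by ILMN_1659047. These too overlapped, as did H2BC11 at 7.55, 7.23 and 6.90, H2BC6 at 4.57, 4.50 and 5.05 (not detected), and H4C14 at 6.92, 7.21 and 6.68. In wtGR cells limma called 0 of the 44 S phase genes, 16 maturation and decay genes, 10 variants and 20 chaperones. At an unadjusted limma p under 0.05 there were 4, 3, 1 and 1, against 7.61% of all kept probes.

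**Figure D4:**
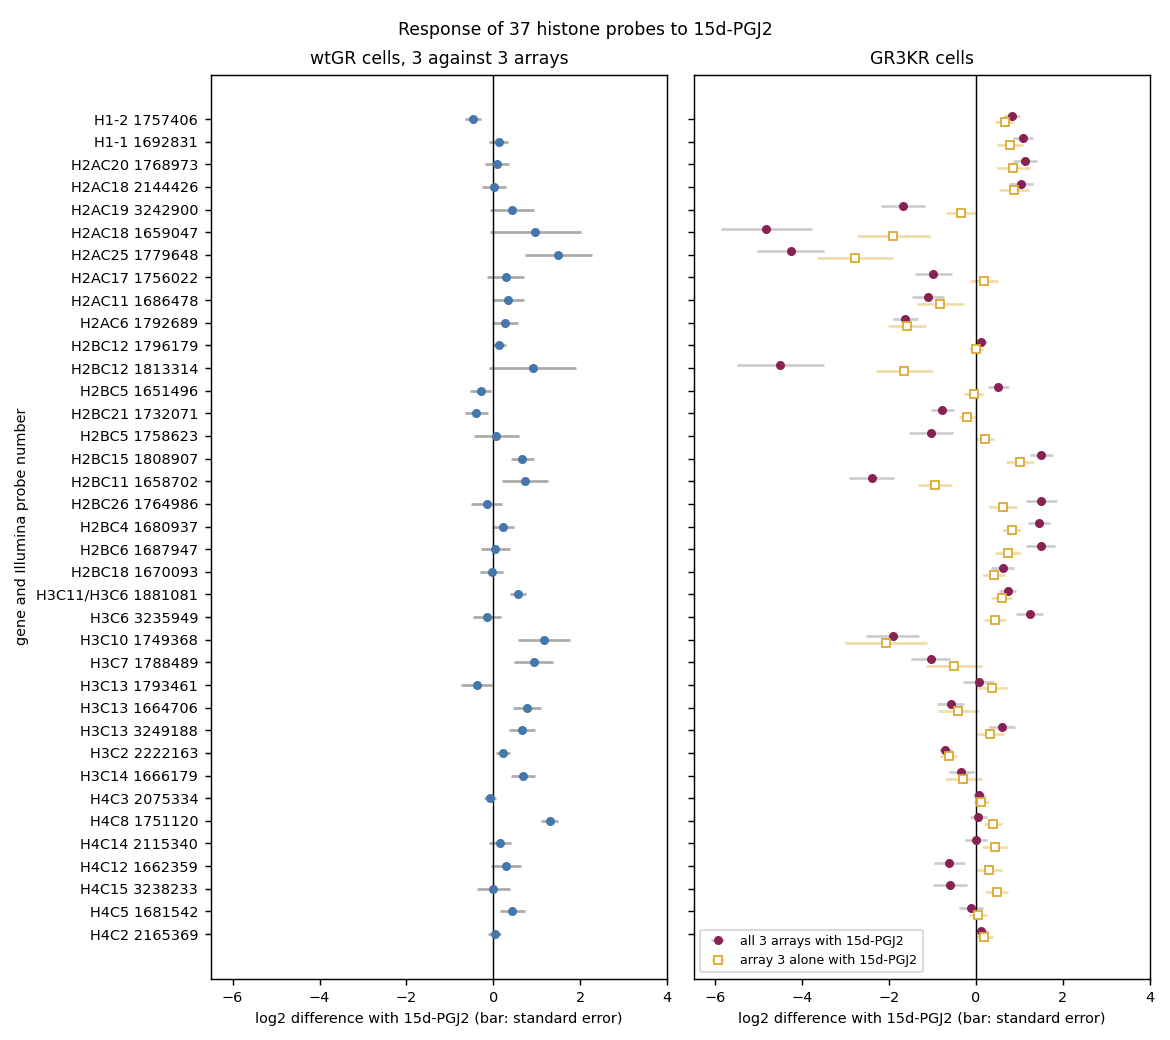
Log2 difference with 15d-PGJ2 (horizontal axes, with standard errors of the limma model) for the 37 kept histone probes (vertical axis), in wtGR cells (left) and GR3KR cells (right). In GR3KR cells the filled points use all 3 arrays with 15d-PGJ2 and the open squares array 3 alone, and the estimate for the H2BC12 probe ILMN_1813314 is -4.50 with all 3 and -1.65 with array 3 alone.

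In GR3KR cells with 15d-PGJ2, 10 histone probes were higher and 10 lower, against 27.2% and 17.6% of all probes (44.8% in either direction). Without arrays 1 and 2 of this group the count was 0, against 0.00957% and 0.0383% of all probes, a fit in which array 3 alone stands for the group and is taken to vary like the others. At an unadjusted p under 0.05 that fit gave 12 of 37, against 19.4% of all probes. The largest falls were those of the H2AC18 probe ILMN_1659047, which read 4.66, 4.49 and 8.96 (-4.83 ± 1.05, limma adjusted p = 0.00888), of the H2BC12 probe ILMN_1813314, at 6.66, 5.33 and 10.28 (-4.50 ± 1.0, limma adjusted p = 0.00957), and of H2AC25, at 6.42, 4.85 and 7.87 (-4.27 ± 0.77, limma adjusted p = 0.00644). In each, arrays 1 and 2 were far below array 3, and all 3 lay below the dexamethasone arrays. H2BC11 followed the same order, with 7.86, 7.79 and 7.98 with dexamethasone and 4.94, 4.56 and 6.93 with 15d-PGJ2 added (-2.40 ± 0.52, limma adjusted p = 0.00894). H3C10 at 4.82, 5.29 and 4.82 (-1.92 ± 0.60, limma adjusted p = 0.027) and H2AC19 at 8.51, 9.42 and 10.99 (-1.69 ± 0.50, limma adjusted p = 0.0224) completed the 6 largest. H3C10 was detected on none of these 3 arrays, so its signal was at least 1.75-fold lower, and H2AC19 on array 3 reached close to its dexamethasone level.

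The other H2AC18 and H2BC12 probes did not fall on these arrays. The H2AC18 probe ILMN_2144426 read 11.27, 12.02 and 11.41, all above its dexamethasone arrays (1.04 ± 0.27, limma adjusted p = 0.015). The H2BC12 probe ILMN_1796179 read 13.91, 13.65 and 13.61 and overlapped them (0.12 ± 0.14, limma adjusted p = 0.515). The gap between the 2 H2AC18 probes was 6.62, 7.53 and 2.45 log2 units on GR3KR 15d-PGJ2 arrays 1, 2 and 3, and between -0.96 and 2.40 on the other 9, where wtGR dexamethasone array 3 was highest. For H2BC12 the gap was 7.25, 8.33 and 3.33 against 1.38 to 4.08, and for H2BC5 it was 3.44, 1.54 and -0.21 against -0.12 to 0.74. The H2BC5 probes themselves read 9.66, 9.53 and 8.75 by ILMN_1651496 and 6.22, 8.0 and 8.96 by ILMN_1758623. Of the 4 histone genes with more than 1 kept probe, the estimates of a gene's probes shared their sign in 0 for this effect, against 51.5% of the 3228 such genes in all. In the comparison of the lines with dexamethasone alone they shared it in 4 of 4, against 71.9% of all.

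**Figure D5:**
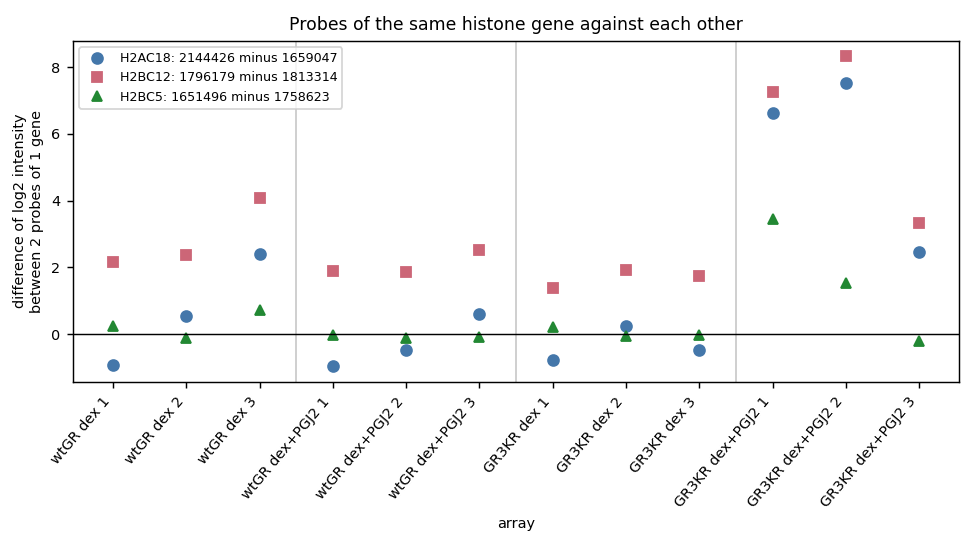
Difference of log2 intensity between a pair of probes of the same gene (vertical axis) on each of the 12 arrays (horizontal axis), for H2AC18, H2BC12 and H2BC5. The gaps on GR3KR 15d-PGJ2 arrays 1 and 2 (6.62 and 7.53 for H2AC18) lie above all other arrays.

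The probes called higher in GR3KR cells with 15d-PGJ2 included both H1 probes. H1-2 read 12.84, 13.16 and 12.75 (0.82 ± 0.18, limma adjusted p = 0.00939) and H1-1 read 6.61, 6.60 and 6.16 (1.07 ± 0.23, limma adjusted p = 0.00849), all above their dexamethasone arrays. H2AC20 read 12.29, 12.73 and 12.11 (1.12 ± 0.28, limma adjusted p = 0.0124). H2BC4 read 7.79, 7.92 and 6.90 (1.46 ± 0.25, limma adjusted p = 0.00611) and H2BC6, an H2B gene detected on 1 of 3 arrays with dexamethasone, rose from 5.06, 5.74 and 5.23 to 6.90, 7.53 and 6.07 (1.49 ± 0.33, limma adjusted p = 0.00955). In these probes array 3, the one with the most detected probes, was the lowest of the 3. The lowest detected signal on these 3 arrays was 6.15, 6.44 and 5.69, above that of every other array. H1-1, and H2BC6 on array 3, lay close to it, and its part in their rise was not tested. H2BC6 passed the detection filter only through the GR3KR arrays, mainly those with 15d-PGJ2, so its call is a description. The shared H3C11 and H3C6 probe read 8.67, 8.93 and 8.60 (0.73 ± 0.19, limma adjusted p = 0.0142), and H3C6's own probe 7.64, 7.99 and 6.62 (1.24 ± 0.31, limma adjusted p = 0.0132). H4C8 (7.21, 6.83 and 7.54), H4C3 (14.26, 14.33 and 14.38) and H4C14 (6.49, 6.99 and 7.37) were not called, and H2AC6 was below detection on all 3 arrays (4.41, 4.36 and 4.45). The H3C13 probes read 4.71, 6.18 and 5.90 by ILMN_1793461, 4.36, 4.42 and 4.66 by ILMN_1664706 and 5.12, 6.19 and 5.25 by ILMN_3249188, and none was called. Of the 44 S phase genes, 5 were higher and 9 lower, against 27.2% and 17.6% of all kept probes. Their median difference was 0.17 with all arrays and 0.05 with array 3 alone, and that of all kept probes was 0.18 and 0.11.

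The lines were also compared with 15d-PGJ2 present, a comparison that shares no array with that under dexamethasone alone. Of the 37 probes 12 were higher in GR3KR and 8 lower, against 29.6% and 21.1% of all probes (50.7% in either direction). Without GR3KR 15d-PGJ2 arrays 1 and 2, 9 were higher and 2 lower, against 7.72% and 5.1% of all. H1-2 was again higher, by 3.03 ± 0.18 with all arrays (8.19-fold) and by 2.87 ± 0.22 with array 3 alone (limma adjusted p = 0.000809). Its 6 arrays with 15d-PGJ2 left a wide space between the lines, from 10.02 to 12.75. H2BC4 was higher by 2.46 ± 0.25 and, with array 3 alone, by 1.83 ± 0.21 (limma adjusted p = 0.00402), at least 4.70-fold with all arrays. The H2BC12 probe ILMN_1796179 (0.78 ± 0.16), both H2BC5 probes (1.30 ± 0.23 and 1.43 ± 0.21) and the shared H3C11 and H3C6 probe (1.41 ± 0.25) were also higher with array 3 alone. With all arrays the H2BC5 probe ILMN_1758623 overlapped between the lines and was not called (0.19 ± 0.52, limma adjusted p = 0.77). H2BC6 (1.37 ± 0.30), H2AC20 (1.49 ± 0.38) and the H2AC18 probe ILMN_2144426 (1.38 ± 0.35) were higher with array 3 alone too. H2BC6 was detected on 0 of 3 arrays in each wtGR group. Like H2BC4, it passed the detection filter only through GR3KR arrays, so the calls of these 2 genes describe the kept probes and test nothing further.

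Lower in GR3KR cells with array 3 alone were the H3C13 probe ILMN_1664706 (-1.94 ± 0.47) and H3C2 (-1.12 ± 0.19). The H3C13 probes ILMN_1793461 and ILMN_3249188 stood at 0.19 and -0.56 with array 3 alone. With all arrays they stood at -0.11 and -0.28, neither called (limma adjusted p = 0.814 and 0.431), so the probes of H3C13 did not act alike. With 15d-PGJ2, H3C2 read 5.86, 5.79 and 5.76 in wtGR cells and 4.67, 4.48 and 4.69 in GR3KR cells, where it was not detected. The lowest detected signal on those GR3KR arrays was 6.15, 6.44 and 5.69, near or above the H3C2 level in wtGR cells. No fold can therefore be given for H3C2. The H3C13 probe ILMN_1664706 was not detected on those GR3KR arrays either, and its signal was at least 1.42-fold lower with all arrays. With all arrays the H2AC18 probe ILMN_1659047 (-4.27 ± 1.05), H2AC25 (-3.99 ± 0.77) and the H2BC12 probe ILMN_1813314 (-3.31 ± 1.0) were also lower (limma adjusted p = 0.00779, 0.00293 and 0.0191). H4C8, higher in GR3KR cells with dexamethasone alone, was not called here (-0.28 ± 0.20, limma adjusted p = 0.252) and stood at 0.06 with array 3 alone. H2AC6, also higher with dexamethasone alone, was not called here either. It was detected on 0 of 3 arrays in each line with 15d-PGJ2, so its missing call says nothing about the lines.

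The difference between the 15d-PGJ2 effects of the lines, GR3KR minus wtGR, was called for 15 histone probes, 5 above 0 and 10 below. Over all probes 14.6% were called above 0 and 9.03% below (23.7% in either direction). Without GR3KR 15d-PGJ2 arrays 1 and 2 the count was 0 (against 0% of all probes above 0 and 0.00478% below, and 10 of 37 at an unadjusted p under 0.05, against 22.6% of all), the lowest limma adjusted p among the 15 was 0.117, and 0 of the 15 changed sign. Leaving out 1 array at a time gave 0 to 26 calls, with 0.292% to 51.8% of all probes called. H3C7, an H3 gene, had the smallest of the 6 largest differences (-1.97, limma adjusted p = 0.0499): it read 5.93, 5.17 and 4.93 with dexamethasone and 6.66, 6.74 and 5.41 with 15d-PGJ2 in wtGR cells. In GR3KR cells it read 7.43, 6.29 and 6.39 and then 5.73, 5.04 and 6.19, so the arrays with 15d-PGJ2 lay lower there without overlap. H3C7 was detected on only 1 of those 3 arrays with 15d-PGJ2. Their lowest detected signal was 6.15, 6.44 and 5.69, close to the dexamethasone readings of 6.29 and 6.39, so the size of this fall is uncertain. The H3C7 call was lost in 19 of its 25 alternatives.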

How the data were processed

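Probes were chosen by annotated symbol, and the members and gene lists were chosen with earlier results of these data known. Each probe has an intensity on a linear scale in the deposited bead table, as scanned and without normalization, and a deposited detection p-value. The deposited log2 values, used as an alternative, came from lumi (version not given) per the submitters' processing notes. The intensity values were background corrected (normexp, from the detection p-values, offset 16), quantile normalized and log2 transformed with limma 3.58.1 in R 4.3.3, so levels and differences are log2 intensity on that scale. Probes with detection p under 0.01 on at least 3 of 12 arrays were kept, without averaging probes of a gene. Depth is not defined for arrays; their number, 3 a group, limits the precision.

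A model with 4 group means was fitted to all 20909 kept probes with lmFit and eBayes of limma (residual degrees of freedom 8, prior 2.66). All 5 comparisons were tested 2-sided, with Benjamini-Hochberg adjustment over all kept probes and a threshold of 0.05. Errors are standard errors of the model. A group below detection on all arrays was raised to the lowest detected signal of each array, and the fold is then "at least"; folds of probes detected on part of a group use the measured values. A check on simulated data was limited to the model fit, and its outcome is not given here. Background correction, normalization and the detection filter were not tested in that way, so nothing is concluded from the check. Replicate columns correlated at 0.869 to 0.994, with 0 identical pairs.

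Values are given for every array for the 3 probes of each class with the highest mean, for probes called in wtGR cells or between the lines with dexamethasone alone, for the 6 largest called changes of each other comparison, and for genes with several kept probes. H2BC15, H2BC21 and H3C2 were named after their values were seen. Of each companion list up to 4 called genes are named, and SLBP was added after its value was seen. Alternatives covered normalization, background, filter, array weights, a replicate block, 1 probe per gene and left-out arrays. Fits with fewer arrays normalized alone were added after seeing the data. Promoters are those of a RefSeq table.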

Additional observations from a re-analysis of the deposited data

Results flagged for a closer look

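The 15d-PGJ2 effect differed between the lines for 15 of the 37 kept histone probes by the limma test of the difference itself (GR3KR minus wtGR, adjusted p under 0.05), 10 below 0 and 5 above. Over all kept probes 9.03% were called below 0 and 14.6% above (23.7% in either direction). All 15 use GR3KR 15d-PGJ2 arrays 1 and 2, and 0 were called without them, although 0 changed sign. Below 0 were the H2AC18 probe ILMN_1659047 (-5.80, adjusted p = 0.0278, and -2.87 without the 2 arrays), H2AC25 (-5.76, adjusted p = 0.0182, then -4.27) and the H2BC12 probe ILMN_1813314 (-5.41, adjusted p = 0.0291, then -2.55). H2BC11 (-3.13, adjusted p = 0.0239, then -1.68), H3C10 (-3.08, adjusted p = 0.0333, then -3.24) and H3C7 (-1.97, adjusted p = 0.0499, then -1.43) came next. H3C7 was detected on 1 of 3 GR3KR arrays with 15d-PGJ2. H2AC6 (-1.89, adjusted p = 0.0209, then -1.85), the H3C13 probe ILMN_1664706 (-1.36, adjusted p = 0.0485, then -1.18), H4C8 (-1.24, adjusted p = 0.0223, then -0.90) and H3C2 (-0.93, adjusted p = 0.0243, then -0.85) complete the 10. H2AC6, the H3C13 probe and H3C2 were detected on 0 GR3KR arrays with 15d-PGJ2. Their level with dexamethasone lay too close to or below the lowest detected signal of those arrays for a fold to be given. For H4C8 the estimate was 1.29 in wtGR cells and 0.05 in GR3KR cells.

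Above 0 were H2BC26 (1.65, adjusted p = 0.0394, then 0.77), H2BC6 (1.45, adjusted p = 0.0478, then 0.68) and H3C6 (1.38, adjusted p = 0.0464, then 0.58). H1-2 (1.30, adjusted p = 0.0185, then 1.13) and H2BC4 (1.24, adjusted p = 0.0363, then 0.61) complete the 5. H2BC6 and H2BC4 passed the detection filter only through GR3KR arrays, so their calls describe the kept probes. H1-2 had estimates of -0.47 in wtGR cells and 0.82 in GR3KR cells. The part that the lower number of detected probes on the 2 arrays plays in these differences was not tested.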

How the results depend on the processing

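Of 649 recomputed values for named probes, 0 reversed, 487 kept their side of the threshold, 153 lost the call and 9 gained it. Counts of called histone probes are given in the order wtGR effect, GR3KR effect, difference of effects, lines with dexamethasone alone, lines with 15d-PGJ2, against 0, 20, 15, 7 and 20. The difference gave 7 calls with cyclic loess, 9 with median scaling and 6 of 79 without a filter, with 10.7%, 9.81% and 5.53% of all probes called. The lines with dexamethasone alone gave 3 with median scaling, against 9.97% of all. The wtGR effect gave 1 call without a filter, with detection on at least 6 arrays and with 1 probe per gene, against 0.0719%, 0.108% and 0.219% of all. With gene-by-gene array weights the wtGR effect gave 18, the difference 30 and the lines with dexamethasone alone 27 (22 higher, 5 lower), with 29.6%, 67.2% and 35.2% of all probes called. The default array weights did not reach their tolerance, and the gene-by-gene method was taken after that was seen; the default gave 22, 34 and 32, with 51.7%, 81.5% and 64.5% of all called. With the replicate block the difference gave 9 calls, the lines with dexamethasone alone 5 (15.3% and 3.12% of all probes), and H4C8 in wtGR cells an adjusted p of 0.193. Same-numbered arrays deviated together (r over 0.1) in 4 of 12 pairs, at r of 0.731, 0.683, 0.749 and 0.151. None of these pairs holds a GR3KR 15d-PGJ2 array. The labels give only a number, so the block rests on that alone, and a shared source of same-numbered arrays was not tested.

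Without GR3KR 15d-PGJ2 arrays 1 and 2 the counts were 1, 0, 0, 12 and 11 (0.387%, 0.0478%, 0.00478%, 11.9% and 12.8% of all), and 1, 0, 0, 13 and 11 after normalizing again (0.359%, 0.191%, 0%, 11.7% and 12.4%), which was added after seeing the data. Without wtGR dexamethasone array 3 as well, they were 1, 2, 1 and 11 for the first 4 comparisons (0.201%, 5.03%, 2.34% and 10.8%). Leaving out 1 array at a time gave 0 to 1, 12 to 27, 0 to 26, 3 to 10 and 17 to 23, with 0.0239% to 0.354%, 19.7% to 61.4%, 0.292% to 51.8%, 1.49% to 9.57% and 35.9% to 62.5% of all probes called. The slide as a block was not run, since no slide is given in the sources used here. Signal near background limits the 6 probes detected on 3 or 4 arrays.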
